A study of Homo sapiens with 6 samples.

Results

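The cytosolic ribosomal protein genes were examined in SUM159 oncospheres with ectopic SCGB3A1 and in empty vector controls. The members were the genes whose probe set carried a single gene symbol of the form RPL or RPS with a number (with a final A, or X for RPS4X), RPLP0 to RPLP2 or RPSA, without the RPS6K kinases. Where a gene had several probe sets, the one that read highest on average across the 6 arrays stood for it. This gave 52 of the 19775 genes with such a probe set, 20 for the small (40S) and 32 for the large (60S) ribosomal subunit. Of 67 ribosomal protein symbols on the array, the other 15, among them RPLP0, RPSA and RPL5, stood only on probe sets shared by several genes and were not members.

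SUM159 is an established human breast cancer line. The SCGB3A1 group (3 arrays) carried the lentiviral vector pLVX-puro with human SCGB3A1, which encodes a small secreted protein of the secretoglobin family, and the empty group (3 arrays) carried pLVX-puro alone. Both groups were selected with puromycin (2 µg/ml, 7 days), seeded at 12500 cells/ml in HuMEC medium with BSA and B27 on ultra-low attachment plastic, and harvested after 5 days as floating spheres. The labels call the replicates biological, without saying whether each had its own transduction. The spread that enters the p-values is that between these arrays, which may be technical.

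Readings are log2 values in which the arrays had been brought to a common distribution, and fold changes are log2 differences, SCGB3A1 minus empty. The SCGB3A1 probe set read 6.60, 6.92 and 6.71 in the arrays labelled SCGB3A1, against 6.80, 6.89 and 7.05 in the empty arrays (−0.17 ± 0.096 SE, limma adjusted p = 0.83), so it did not check the labels. The insert was a synthesized cDNA, and whether this probe set covers it was not analysed here. Empty replicate 2 stood apart on the first principal component (38.0% of the variance), at 30.7 against −16.1 to 6.13 for the other 5 arrays. The mesenchymal markers VIM and FN1 read 14.37 and 14.14 in SCGB3A1 spheres, against 14.42 and 14.14 in empty spheres. CDH2, ZEB1 and SPARC read 10.03, 10.12 and 13.43 in SCGB3A1 spheres, against 10.14, 10.37 and 13.54 in empty spheres. All 5 of these markers had negative fold changes, with a median of −0.10. The luminal markers KRT18, KRT8 and EPCAM read 11.52, 10.87 and 6.18 in SCGB3A1 spheres, against 11.44, 10.83 and 6.19 in empty spheres. The other luminal markers, ESR1, PGR, GATA3 and FOXA1, had group means of at most 8.17. The basal markers KRT5 and KRT14 read 12.46 and 9.998 in SCGB3A1 spheres, against 11.89 and 9.44 in empty spheres. The leukocyte marker PTPRC read 7.72 in SCGB3A1 spheres and 7.78 in empty spheres. KRT17 and TP63, also listed as basal, had no probe set with their symbol alone and were not measured. Past an unadjusted p of 0.05 were 0 of 7 luminal, 2 of 2 basal (KRT5 and KRT14, 0.56 each), 1 of 5 mesenchymal (ZEB1, −0.25), 0 of 3 haematopoietic and 0 of 4 endothelial markers that were measured, and 0 of them passed after adjustment. As shares these were 100% of the measured basal markers (higher, background 3.09%) and 20% of the mesenchymal ones (lower, background 3.1%). Whether these differences have a part in the values of the ribosomal protein genes was not tested.

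Ribosomal proteins assemble with ribosomal RNA into the 40S subunit, which reads the mRNA, and the 60S subunit, which joins amino acids. Their genes are scattered over the genome, yet their mRNAs are among the most abundant of dividing cells and are kept in balance. Most vertebrate ribosomal protein mRNAs begin with a 5′ terminal oligopyrimidine (TOP) tract, a C followed by a run of pyrimidines, through which mTOR and the RNA-binding protein LARP1 control their translation. An expression array measures the amount of mRNA and not its translation.

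The members lay on 19 chromosomes, 3 of them on the X. The RefSeq table of promoters (GRCh38.p14) held an annotated start for 46 of the 52. A TOP tract was searched on the coding strand as a C at an annotated start followed by at least 4 pyrimidines. Here and in the counts below, a gene with several annotated starts counted if any of them carried the motif. It was found for 34 of the 46 members (73.9%) and for 5.14% of all 27305 genes in the table. Within 10 bases on either side of the start, the same motif began in 42 members (91.3%) and in 38.4% of all genes. For the members in that table whose readings in each array are given below, the sequence is printed from 10 bases before to 20 bases from the annotated start, 5′ to 3′ on the strand of the gene, with the pyrimidine run from the start in capitals.
RPS3 (chr11:75399508-75399537, plus strand): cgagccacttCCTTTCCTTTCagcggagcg
RPS6 (chr9:19380217-19380246, minus strand): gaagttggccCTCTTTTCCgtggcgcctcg
RPS10 (chr6:34426050-34426079, minus strand): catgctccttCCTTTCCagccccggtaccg
RPS14 (chr5:150449720-150449749, minus strand): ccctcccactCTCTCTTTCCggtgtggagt
RPS16 (chr19:39435930-39435959, minus strand): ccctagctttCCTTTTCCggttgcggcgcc
RPS25 (chr11:119018324-119018353, minus strand): gcagcgcttcCTTTTTgtccgacatcttga
RPL18 (chr19:48619159-48619188, minus strand): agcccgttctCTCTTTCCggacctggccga
RPL27A (chr11:8682782-8682811, plus strand): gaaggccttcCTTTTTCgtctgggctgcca
RPL29 (chr3:51995876-51995905, minus strand): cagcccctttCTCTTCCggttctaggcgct
RPL31 (chr2:101002279-101002308, plus strand): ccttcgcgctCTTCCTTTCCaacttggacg
RPL36 (chr19:5690285-5690314, plus strand): cggcgccagcCCTTCCgccacggccgtctc
RPL36A (chrX:101391001-101391030, plus strand): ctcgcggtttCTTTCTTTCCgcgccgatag
RPL37A (chr2:216498834-216498863, plus strand): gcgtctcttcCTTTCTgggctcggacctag
RPL41 (chr12:56116623-56116652, plus strand): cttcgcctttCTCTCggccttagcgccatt
RPLP1 (chr15:69452808-69452837, plus strand): ggcgcgagagCCCCTTTCCTCagctgccgc
RPLP2 (chr11:809957-809986, plus strand): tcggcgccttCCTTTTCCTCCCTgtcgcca

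RPS4X and RPS28, without the motif at the annotated start, are shown for contrast in lower case throughout.
RPS4X (chrX:72277229-72277258, minus strand): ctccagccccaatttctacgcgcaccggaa
RPS28 (chr19:8321486-8321515, plus strand): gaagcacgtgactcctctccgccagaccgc
In RPS28 the motif began within 10 bases of the start, and in RPS4X it did not. An annotated start can differ from the start used in these cells, and a window without the motif says only that these letters are not there. Of related genes, 7 of 8 other mRNAs listed for a TOP tract (87.5%), 3 of 8 ribosomal protein genes and paralogs outside the naming rule (37.5%), 9 of 27 translation factors (33.3%), 5 of 67 mitochondrial ribosomal protein genes (7.46%) and 6 of 64 ribosome biogenesis factors (9.38%) carried it at the annotated start. These shares describe the annotation and do not depend on the arrays.

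The probe sets that stood for the members had been chosen as the highest-reading ones of their genes, and their levels are given as a description. Of the 52, 49 had a mean reading above 12 (12.70 to 14.47) and all 49 ranked within the first 500 in each array, whereas 18 of the 59 other probe sets of the same genes read above 12. RPL41, the smallest ribosomal protein, held rank 3 in each SCGB3A1 array, with 14.49 throughout, and read 14.44, 14.49 and 14.43 in the empty arrays. RPLP1, an acidic protein of the stalk that recruits translation factors to the 60S subunit, read 14.33, 14.30 and 14.41 in SCGB3A1 spheres and 14.34, 14.40 and 14.35 in empty spheres. At the top of the scale the arrays were nearly identical by rank, differing by at most 0.036 at any of the first 1000 ranks, so that a reading there is close to a rank. A shift shared by all ribosomal protein mRNAs, or fewer cells and less RNA per cell, cannot be told apart in values scaled this way.

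The 3 members outside this range were RPL27A at 10.14, RPLP2 at 7.69 and RPL36A at 6.61. RPLP2, the stalk partner of RPLP1, read 7.85, 7.68 and 7.59 in SCGB3A1 arrays, against 7.71, 7.62 and 7.70 in empty arrays, and the groups overlapped. RPL27A, a 60S protein, read 10.28, 10.09 and 9.97 in SCGB3A1 arrays, against 10.25, 10.07 and 10.19 in empty arrays, again with overlap. Readings of different probe sets depend on their probes and do not rank the genes by mRNA amount.

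No ribosomal protein gene passed the test between SCGB3A1 and empty spheres. Of the 52 members, 0 passed an adjusted p of 0.05 (background 0.0183% of all tested probe sets, either direction), with a smallest adjusted p of 0.82. At an unadjusted p of 0.05, 0 members were higher (background 3.09%) and 0 were lower (background 3.1%). The median log2 fold change of the members was −0.0017, with 25 above and 27 below 0, against 0.0026 over all tested probe sets. Single members ranged from −0.19 (RPL36A) to 0.088 (RPL8), which is a fold of 1.06. The 95% intervals lay within ±0.2 for 35 members and within ±0.3 for 51, with RPL36A as the exception (−0.38 to 0.0073), and within ±0.1 for 0. The intervals bound differences in scaled readings and not in mRNA amount. Of the members, 49 read 12.70 to 14.47, on a scale whose highest reading was 14.66 in each array. Whether fold changes are compressed near that end was not tested. Members on 40S and 60S subunits had medians of −0.011 (7 above and 13 below 0) and 0.013 (18 above and 14 below 0).

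**Figure D1:**
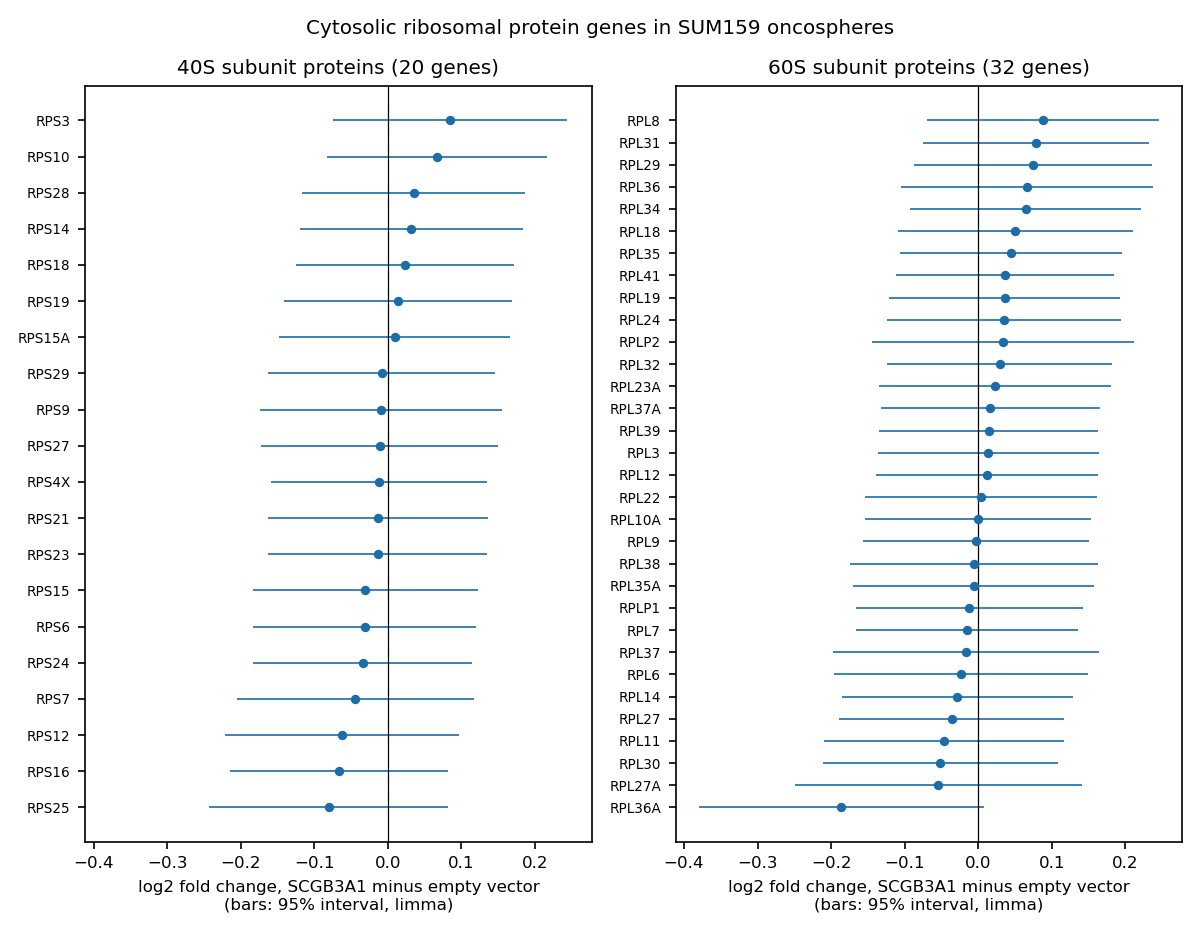
Log2 fold change of each member, SCGB3A1 minus empty vector, with 20 genes of the 40S subunit on the left and 32 of the 60S subunit on the right, ordered by value. Points are limma estimates and bars their 95% intervals over 3 arrays a group. All 52 intervals include 0, and RPL36A at −0.19 lies farthest from it.

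Limma draws the variance of each probe set towards that of all others. For the members, the standard deviation between arrays within groups had a median of 0.052, against 0.058 for all tested probe sets reading above 12 and 0.097 for all tested, while the median standard error of the fold changes was 0.072 for members and 0.081 for all. With a variance that followed intensity, the median standard error of the members was 0.047 and 49 intervals lay within ±0.2, with 0 members past either threshold. These spreads and intervals too are those of scaled readings and do not bound changes in mRNA amount.

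Among 40S proteins, the groups did not overlap for RPS10 and RPS16. RPS10, a protein of the 40S head that is mutated in Diamond-Blackfan anaemia, read 14.07, 14.01 and 14.03 in SCGB3A1 spheres, against 13.99, 13.94 and 13.97 in empty spheres (0.067 ± 0.069 SE, adjusted p = 0.91). RPS16, whose tail reaches the tRNA that holds the growing peptide, read 14.18, 14.19 and 14.21 in SCGB3A1 spheres, against 14.29, 14.25 and 14.25 in empty spheres (−0.067 ± 0.068, adjusted p = 0.91). Every SCGB3A1 array lay above every empty array for RPS10 and below for RPS16. Over all 52 members this was 1 gene higher, against a background of 5.95% of tested probe sets, and 1 gene lower, against a background of 5.25%, and both differences were about 1 standard error. Among tested probe sets reading above 12 the shares without overlap were 8.80% higher and 6.77% lower.

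The other 40S members overlapped between the groups. RPS3, which lines the mRNA entry channel, read 13.54, 13.50 and 13.62 in SCGB3A1 spheres, against 13.46, 13.53 and 13.41 in empty spheres (0.085 ± 0.073). RPS25, which is needed for initiation at several viral internal ribosome entry sites, read 13.46, 13.56 and 13.59 in SCGB3A1 spheres, against 13.57, 13.70 and 13.58 in empty spheres (−0.080 ± 0.075). For RPS25 the lowest reading was SCGB3A1 replicate 1 and the highest empty replicate 2, with the other 4 arrays between 13.56 and 13.59. RPS12 (−0.062), RPS7 (−0.044) and RPS24 (−0.034) had the next lowest values. RPS6, the substrate of the S6 kinases downstream of mTOR, read 13.88, 13.92 and 13.94 in SCGB3A1 spheres and 13.97, 13.90 and 13.97 in empty spheres (−0.032 ± 0.070). RPS19, the gene most often mutated in Diamond-Blackfan anaemia, had a fold change of 0.013. RPS4X, which escapes X inactivation, kept within 14.19 to 14.22 in all 6 arrays (−0.012).

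Among 60S proteins, the highest fold changes were those of RPL8, RPL31 and RPL29. RPL8, which lies next to the peptidyl transferase centre, read 13.50, 13.54 and 13.44 in SCGB3A1 spheres, against 13.46, 13.34 and 13.43 in empty spheres (0.088 ± 0.073, adjusted p = 0.89). RPL31, at the exit of the peptide tunnel, read 13.57, 13.63 and 13.68 in SCGB3A1 spheres, against 13.53, 13.59 and 13.52 in empty spheres (0.078 ± 0.071). RPL29, a surface protein of the subunit, read 13.73, 13.74 and 13.69 in SCGB3A1 spheres, against 13.69, 13.54 and 13.71 in empty spheres (0.075 ± 0.075). For RPL8 and RPL29 the lowest reading was that of empty replicate 2. Further members with positive values were RPL36 (0.066), RPL34 (0.064), RPL18 (0.050), RPL35 (0.044) and RPL41 (0.036).

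RPL36A, a 60S protein close to the exit site of tRNA, had the lowest fold change and the smallest p of all members. It read 6.48, 6.41 and 6.65 in SCGB3A1 spheres, against 6.75, 6.56 and 6.79 in empty spheres (−0.19 ± 0.089, unadjusted p = 0.058, adjusted p = 0.82). SCGB3A1 replicate 3 read above empty replicate 2, and the groups overlapped. This probe set lay near the low end of the scale, below the median of all probe sets of 6.91. Without empty replicate 2 the fold change was −0.26 (unadjusted p = 0.012, adjusted p = 0.73), which made RPL36A the 1 member past an unadjusted p of 0.05 (1.92% of members, against 6.28% of all tested probe sets in that fit). RPL30 (−0.051), RPL27A (−0.054), RPL27 (−0.036) and RPL11, which binds MDM2 together with RPL5 and 5S RNA (−0.047), were the next lowest 60S members. RPLP1 and RPLP2 had values of −0.012 and 0.034.

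The members were also divided by the TOP tract. The median fold change was 0.0074 for the 34 members with the motif at the annotated start and −0.0056 for the 12 without it, RPL10A, RPL19, RPL27, RPL3, RPL32, RPL6, RPL9, RPS15, RPS28, RPS29, RPS4X and RPS7. RPL23A, RPL30, RPL37, RPL7, RPL8 and RPS15A were not in the table of starts and had a median of −0.0030. These medians are descriptions with no test.

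In the scaled values no array read high or low for the ribosomal proteins as a set. The median deviation of the 52 members from their own means was between −0.0054 and 0.0057 in each of the 6 arrays. Because the arrays were brought to a common distribution, a shift shared by these high-reading probe sets could be hidden. Empty replicate 2 was the array farthest from the mean of the others for 25 members (48.1%), compared with 27.0% of all tested probe sets and 42.9% of those reading above 12. It lay above all 5 other arrays for 14 members, below them for 17 and among them for 21. Relative to all tested probe sets these shares were 26.9% against 20.4% above and 32.7% against 23.3% below, and relative to probe sets reading above 12 they were 26.9% against 24.1% and 32.7% against 33.6%.

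The largest gaps of empty replicate 2 to the nearest other array were in 60S proteins. RPL29 lay 0.15 below and RPL18 0.15 below, whereas RPL6 lay 0.13 above, RPL37 0.12 above and RPL38 0.12 above. RPL18 read 13.26, 13.27 and 13.26 in SCGB3A1 spheres, against 13.27, 13.11 and 13.26 in empty spheres, and its fold change was 0.050 with and −0.00077 without that array. RPL37, a zinc-binding 60S protein, read 14.11, 14.10 and 14.18 in SCGB3A1 spheres, against 14.08, 14.31 and 14.06 in empty spheres, and its fold change was −0.016 with and 0.064 without that array. For RPL18 the other 5 arrays lay within 13.26 to 13.27, whereas for RPL37 they ran from 14.06 to 14.18, a range as wide as the gap of empty replicate 2 to the nearest of them. Within the empty group the standard deviation was larger than within the SCGB3A1 group for 35 of 52 members (67.3%), compared with 56.8% of probe sets reading above 12. The median standard deviation of the members was 0.037 without empty replicate 2, and their median fold change was then 0.0014.

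**Figure D2:**
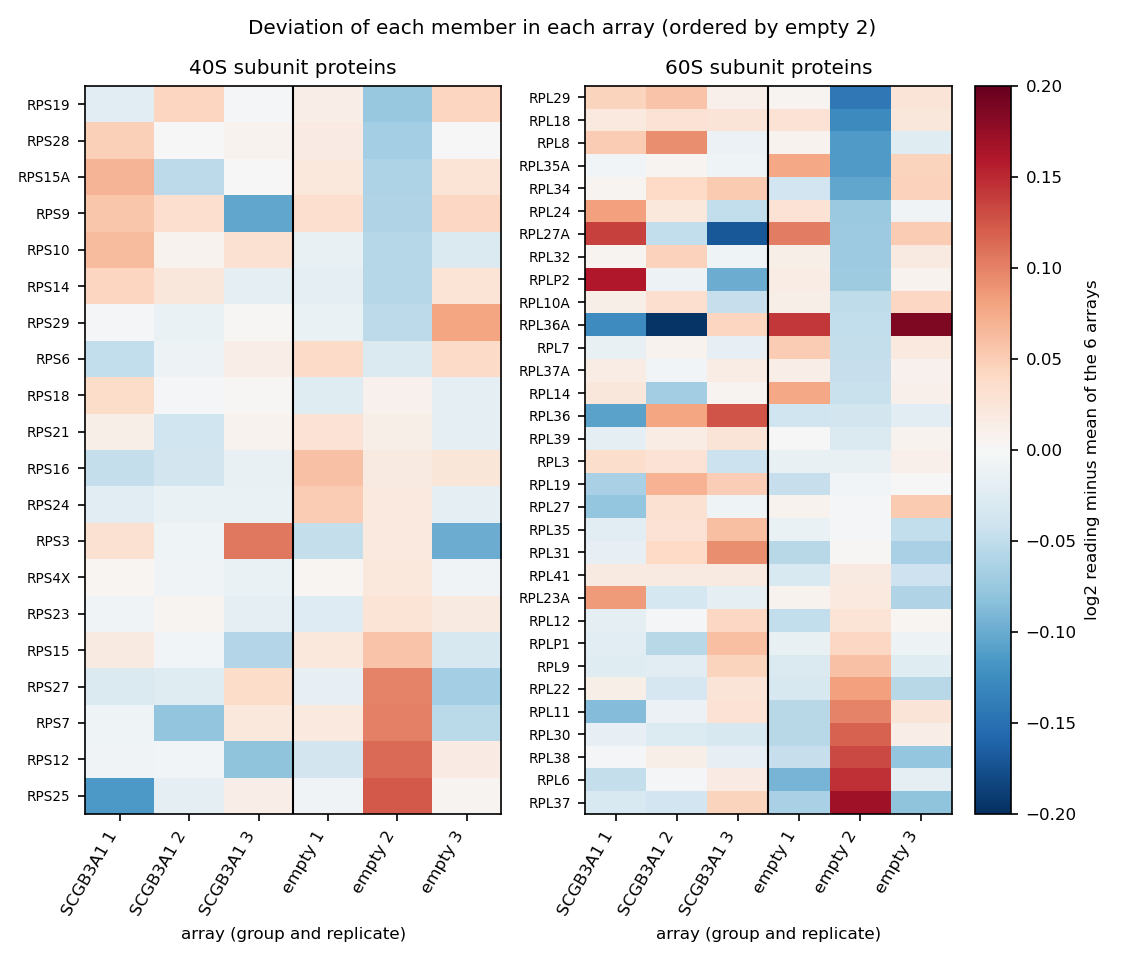
Deviation of each member (rows) from its mean over the 6 arrays (columns, SCGB3A1 left of the black line, empty vector right of it), in log2 units. Rows are ordered by empty 2, whose column runs from blue at the top to red at the bottom, with RPL29 lowest and RPL37 highest in the 60S panel, whereas the 2 groups show no block of one colour.

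The array carried 111 probe sets for the 52 members, 59 of them beside the chosen ones and spread over 33 genes. Of the chosen probe sets, 10 had a plain name, 28 a suffix for several transcripts of a gene family (_s_at) and 14 a suffix for probes that may bind unrelated sequences (_x_at). Ribosomal protein genes have many processed pseudogenes, and the reading of a probe set can include their transcripts and those of close paralogs. The 59 others had a median fold change of 0.023 (−0.28 to 0.24), 0 past the adjusted threshold and 3 past an unadjusted p of 0.05, all higher (5.08%, background 3.09%). The groups did not overlap for 6 that were higher (10.2%, background 5.95%) and 1 that was lower (1.69%, background 5.25%). Of these 59 probe sets, 18 read above 12, 18 between 8 and 12, and 23 below 8.

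The probe sets of a gene were also compared with each other. In 14 genes with several probe sets above 12, their fold changes spanned a median of 0.052 and at most 0.098 (RPS6), against a median of 0.12 over all probe sets of the 33 genes. In 24 of the 33 genes the probe sets had fold changes of both signs. RPS10 was measured by 3 probe sets above 12, with fold changes of 0.067, 0.039 and 0.036, whose groups did not overlap in the first 2. All 3 have the suffix _x_at, and their values may not be independent. A further RPS10 probe set, reading 8.59, had −0.019 with overlap. Among the 18 other probe sets above 12, 11.1% were higher without overlap and 0% lower, against 8.80% and 6.77% of all tested reading above 12. RPS16 was measured by 3 such probe sets, with −0.067, −0.0099 and 0.0026, and only the chosen probe set separated the groups. A second probe set of RPL29, which was singled out after its values were seen, read 13.65, 13.71 and 13.51 in SCGB3A1 spheres, against 13.62, 13.20 and 13.56 in empty spheres (0.16 ± 0.11, adjusted p = 0.86), with empty replicate 2 again the lowest. For RPS6 the chosen probe set had −0.032 and a second one 0.066, with 13.86, 13.87 and 13.81 in SCGB3A1 spheres, against 13.79, 13.77 and 13.78 in empty spheres.

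The 3 probe sets past the unadjusted threshold were weak ones of RPS28, RPL37A and RPS14. The RPS28 probe set read 8.39, 8.28 and 8.29 in SCGB3A1 spheres, against 8.003, 8.18 and 8.04 in empty spheres (0.24 ± 0.077, adjusted p = 0.72). The RPL37A probe set read 7.53, 7.42 and 7.46 in SCGB3A1 spheres, against 7.19, 7.16 and 7.37 in empty spheres (0.23 ± 0.079, adjusted p = 0.75). The RPS14 probe set read 7.08, 7.00 and 6.96 in SCGB3A1 spheres, against 6.70, 6.80 and 6.92 in empty spheres (0.21 ± 0.079, adjusted p = 0.78). In each of the 3 the SCGB3A1 arrays lay above the empty arrays. The chosen probe sets of the same genes, reading 13.78, 14.21 and 14.13, had fold changes of 0.035, 0.016 and 0.032. The widest spans within a gene were those of RPL37A (0.36), RPL18 (0.33), RPL36 (0.31) and RPL37 (0.30). The low values of RPL36 (−0.24) came from a probe set that read 6.33, 6.06 and 6.48 in SCGB3A1 spheres, against 6.04, 7.43 and 6.12 in empty spheres, with 1 array, empty replicate 2, far above the rest.

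**Figure D3:**
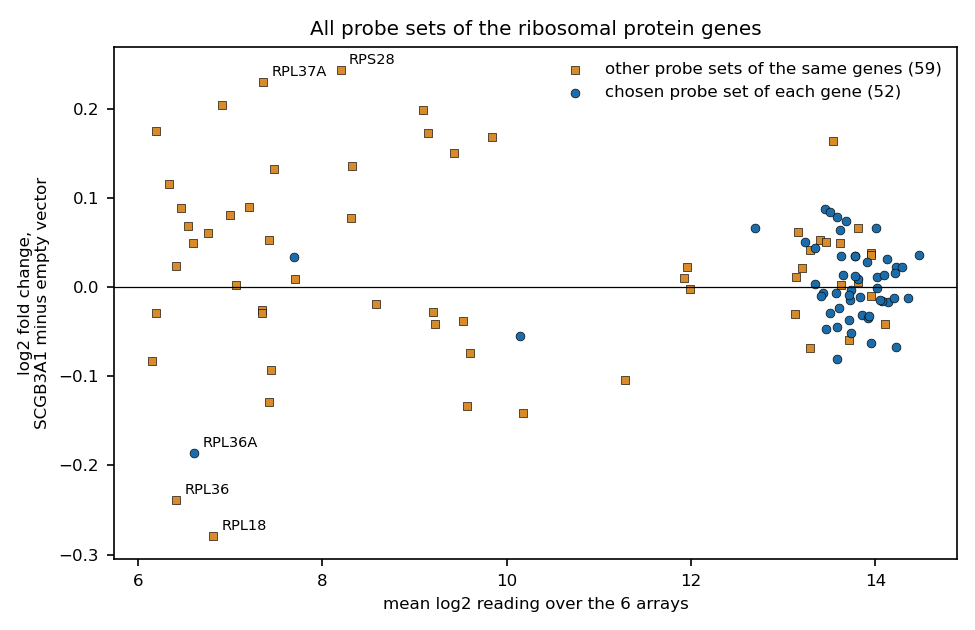
Log2 fold change, SCGB3A1 minus empty vector, against the mean log2 reading over the 6 arrays for the 52 chosen probe sets (blue circles) and the 59 other probe sets of the same genes (orange squares). Of the probe sets reading above 12, the one farthest from 0 is a second probe set of RPL29 at 0.16, and the values farthest from 0 on the whole plot (RPL18 and RPL36 below, RPS28 and RPL37A above) belong to probe sets reading under 9.

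A further 64 probe sets listed a ribosomal protein symbol among several symbols and cannot be given to 1 gene. Their median fold change was 0.028 (−0.58 to 0.26), with 0 past the adjusted threshold. At an unadjusted p of 0.05, 2 were higher (3.13%, background 3.09%) and 1 was lower (1.56%, background 3.1%). The groups did not overlap for 10 that were higher (15.6%, background 5.95%) and 2 that were lower (3.13%, background 5.25%). These 64 read at a median of 13.60, and among all tested probe sets reading above 12 the shares were 8.80% higher and 6.77% lower.

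Other genes of the translation machinery were compared in the same fit, each by its highest-reading probe set. Ribosomal protein genes outside the naming rule and paralogs (10 of 12 measured) had 0 genes past an unadjusted p of 0.05 and a median of −0.033. The members of this list with the smallest p were RPL10L (−0.17) and RPL39L (0.13), which are expressed mainly in male germ cells, and RPL3L (−0.12), which is expressed in muscle, all read by probe sets under 8. Among other mRNAs with a TOP tract (14 of 17 measured), 0 passed and the median was 0.0010. EEF1A1, the factor that carries tRNA to the ribosome, held the top rank, 14.66, in all 6 arrays. EIF3H (0.096) and EIF3E (−0.063), subunits of the initiation factor eIF3, and EIF4B (0.19), a cofactor of the helicase eIF4A, had the smallest p in this list.

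Translation factors (35 of 39 measured) had 0 past an unadjusted p of 0.05 and a median of −0.0058. Their groups did not overlap for 5 that were higher (14.3%, background 5.95%) and 2 that were lower (5.71%, background 5.25%), EIF4E among the lower. EIF4B, which was also in the TOP list, read 12.19, 12.26 and 12.02 in SCGB3A1 spheres, against 11.91, 11.85 and 12.14 in empty spheres (adjusted p = 0.82), and empty replicate 3 read above SCGB3A1 replicate 3. EIF4E, the cap-binding protein, read 9.78, 9.70 and 9.82 in SCGB3A1 spheres, against 9.82, 9.96 and 9.93 in empty spheres (−0.14), and EIF3M had −0.15. Among MYC and mTOR regulators (20 of 20 measured) the median was 0.056 and 2 were higher at an unadjusted p of 0.05 (10%, background 3.09%), with 0 after adjustment. The groups did not overlap for 5 that were higher (25%, background 5.95%) and 0 that were lower (background 5.25%). SESN1, a p53-induced inhibitor of mTORC1, read 10.23, 10.10 and 10.15 in SCGB3A1 spheres, against 9.96, 9.96 and 9.94 in empty spheres (0.21 ± 0.071, adjusted p = 0.74). DEPTOR, an inhibitory partner of mTOR, read 9.69, 9.60 and 9.54 in SCGB3A1 spheres, against 9.45, 9.49 and 9.38 in empty spheres (0.17 ± 0.074, adjusted p = 0.79). The groups did not overlap for either gene. The remaining genes of this list without overlap, all higher, were MTOR itself (0.090), the S6 kinase gene RPS6KB1 (0.080) and AKT1S1 (0.11). The kinase gene RPS6KB2 had −0.13.

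Ribosome biogenesis factors (72 of 81 measured) had a median of −0.0042, with 1 higher (1.39%, background 3.09%) and 2 lower (2.78%, background 3.1%) at an unadjusted p of 0.05 and 0 after adjustment. MDN1, the ATPase that strips assembly factors from 60S precursors, read 7.97, 8.02 and 7.91 in SCGB3A1 spheres, against 8.37, 8.28 and 8.12 in empty spheres (−0.29 ± 0.081, adjusted p = 0.70). BYSL, an assembly factor of the 40S subunit, read 9.20, 9.17 and 9.05 in SCGB3A1 spheres, against 8.99, 8.69 and 8.94 in empty spheres (0.27 ± 0.090, adjusted p = 0.74). In this list the groups did not overlap for 2 genes that were higher (2.78%, background 5.95%) and 4 that were lower (5.56%, background 5.25%). Among them were MDN1 and BYSL, whose fold changes had opposite signs. The helicase gene DDX52 had −0.22 with overlap. RNA polymerase I machinery (15 of 15 measured) had 0 past and a median of 0.010, with RRN3 at −0.18, POLR1B at 0.11 and POLR1H at 0.13. Chaperones of ribosomal proteins (10 of 10 measured) had 0 past and a median of −0.039, with HEATR3 at −0.18, PDCD2L at −0.13 and GRWD1 at −0.11. Of 11 snoRNA host genes, 2 were measured, GAS5 (−0.24, unadjusted p = 0.039, adjusted p = 0.79) and ZFAS1 (0.044). At an unadjusted p of 0.05, 1 of the 2 was lower (50%, background 3.1%), with 0 after adjustment. GAS5, a TOP-carrying non-coding RNA, read 6.87, 6.76 and 7.12 in SCGB3A1 spheres, against 6.99, 7.19 and 7.29 in empty spheres, with overlap. Its mean reading of 7.04 lay near the low end of the scale, close to the median of all probe sets of 6.91.

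The mitochondrial ribosomal proteins (75 measured), which build a separate ribosome inside mitochondria, had a median of 0.0043 with 1 higher and 1 lower at an unadjusted p of 0.05 (1.33% each, background 3.09% and 3.1%) and 0 after adjustment. These were MRPS35 (0.26) and MRPL30 (−0.19), followed by MRPL49 (0.15). Their standard deviation between arrays within groups had a median of 0.084, larger than the 0.052 of the cytosolic members, and they read at a median of 9.97, against 13.74 for the cytosolic members. Intervals within ±0.2 were obtained for 22 of 75 mitochondrial and 35 of 52 cytosolic genes. These spreads and intervals are those of scaled readings at different levels of the scale.

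**Figure D4:**
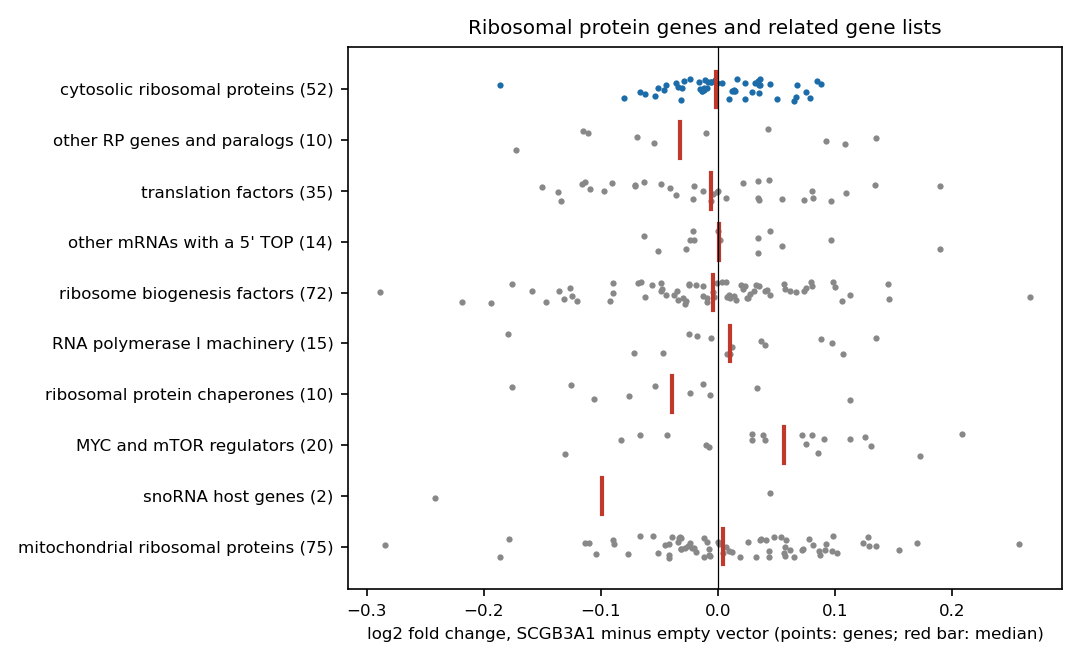
Log2 fold change, SCGB3A1 minus empty vector, of the genes in each list (points, number of genes in brackets), with the median of each list as a red bar. The 52 cytosolic ribosomal protein genes (blue, median −0.0017) all lie between −0.19 and 0.088, and the other lists (grey) have medians from −0.099 (2 snoRNA host genes) to 0.056 (MYC and mTOR regulators).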

How the data were processed

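Gene expression was measured in SUM159 oncospheres on Affymetrix U133 Plus 2.0 arrays, with 3 arrays per group and 100 ng of RNA each. The authors normalized the scans by RMA in Chipster, a method that subtracts background, brings the arrays to a common distribution by quantile normalization and summarises each probe set, and deposited its log2 values. No detection calls or scan dates were used here, and the precision is limited by having 3 arrays a group.

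Of 54675 probe sets, 62 manufacturer controls were set aside and 54613 were tested with limma 3.58.1 in R 4.3.3 (lmFit and eBayes, two-sided, Benjamini-Hochberg over all of them), following the empirical Bayes test of the study's methods. The fit was tested on simulated data. Adjusted p-values are from limma. Symbols came from the platform annotation, updated through RefSeq, which changed 0 member symbols. Starts were read from a RefSeq table (GRCh38.p14).

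The members and the gene lists were chosen with earlier results of these data known. Named were SCGB3A1, the members with the smallest p (up to 10 in either direction), a fixed set (RPLP1, RPLP2, RPL11, RPS6, RPS19, RPL41), the 4 members with the widest span over probe sets and up to 3 genes per list with the smallest p. RPS4X, RPS28, RPS14, RPL6, RPL38, EEF1A1, MTOR, RPS6KB1, AKT1S1 and the markers were named after their values were seen. Alternatives were median centring, an intensity trend, array weights, the replicate number as a block, a filter on dim probe sets, other choices of probe set and leaving out each array.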

Additional observations from a re-analysis of the deposited data

How the results depend on the processing

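Under every alternative tried, 0 members passed an adjusted p of 0.05. At an unadjusted limma p of 0.05 the count was 0, but 1 with array weights (8.05% of all tested), 1 with a gene's probe sets averaged (7.22%), 2 with plain probe sets for the 30 members that had one (RPS28 and RPL37A, 6.2%), and 0 to 1 when an array was left out (4.31% to 8.87%). As shares of the 52 members, 1 and 2 are 1.92% and 3.85%, below the share over all tested in each of these fits. RPL36A was the gene past it with array weights (fold change −0.24, adjusted p = 0.50) and with averaged probe sets (−0.19, adjusted p = 0.68). It was also the gene past it without empty replicate 2 (fold change −0.26) and without SCGB3A1 replicate 3 (−0.25). The median fold change of the members was 0.0071 with array weights, 0.023 with plain probe sets, 0.015 with the mean of probe sets and −0.0048 to 0.012 when an array was left out. The filter on dim probe sets left out RPL36A.

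The labels do not say whether arrays with the same replicate number in both groups were paired. The residuals of same-numbered arrays correlated at 0.15, −0.14 and −0.087. With so few arrays, whose residuals within a group depend on each other, these correlations cannot decide whether the arrays were paired. With the replicate number as a block, 1 member passed the unadjusted threshold (1.92%, against 5.85% of all tested) and the calls over all probe sets past the adjusted threshold were 4 instead of 10. That member was RPL36A, with a limma p of 0.036 and an adjusted p of 0.85. Those calls were 19 with an intensity trend, 16 with array weights, 6 without dim probe sets, 4 with the mean of probe sets, 7 adjusted over genes and 1 to 6 when an array was left out.

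Signs turned for these named genes. With array weights RPL37 had 0.018. With plain probe sets RPL31 had −0.041, RPS16 0.0026, RPS24 0.14, RPLP1 0.050, RPLP2 −0.028, RPS6 0.18 and RPL37 0.17. With the mean of probe sets RPL36 had −0.086, RPL18 −0.058, RPS16 0.0041, RPS12 0.035, RPS24 0.051, RPLP1 0.019, RPS6 0.054, RPL37 0.044 and EIF3H −0.00047. When an array was left out, values ran from −0.00077 to 0.078 for RPL18, −0.045 to 0.013 for RPLP1, −0.021 to 0.038 for RPS19, −0.0030 to 0.027 for RPL37A, −0.061 to 0.064 for RPL37, −0.0088 to 0.23 for POLR1H, −0.0078 to 0.087 for ZFAS1, −0.038 to 0.092 for RPLP2 and −0.14 to 0.017 for RPL27A. The other named values kept their sign and their side of the adjusted threshold (395 of 412 with other settings and 301 of 312 when an array was left out). The cause of these changes was not tested.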
